A study of Mus musculus with 28 samples.

Results

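The Ebf genes Ebf1, Ebf2, Ebf3 and Ebf4 were described by the peaks of 11 chromatin immunoprecipitation (ChIP) libraries that lay in the gene body or within 10 kb and 100 kb of it. These are the 4 members of the family in the RefSeq gene table, out of 21775 protein-coding genes placed on the main chromosomes. Ldb1, a cofactor without DNA-binding ability that LIM-homeodomain proteins such as Lhx2 bring to enhancers, was mapped in sorted mouse olfactory neurons. Lhx2 KO neurons (2 libraries) carried Lhx2fl/fl and the reporter Rosa-CAG-tdtom+/fl together with OMP-IRES-Cre, a Cre driven from the gene of the olfactory marker protein, so that Lhx2 was removed only once a neuron had matured. Olfr1507+ cells (M28-IRES-GFP, 2 libraries) express a single chosen odorant receptor. Control mature olfactory sensory neurons (OMP-IRES-GFP) gave 3 Ldb1 libraries, 2 libraries of CTCF, which binds domain boundaries and insulators, and 2 of Rad21, a subunit of the cohesin ring. The labels give no age for these mice and do not tie libraries to animals, and the spread behind each p-value may therefore be technical. Control and Lhx2 KO mice differed in more than Lhx2, since they carried different reporters and only the KO mice carried Cre, and these cannot be told apart.

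Ebf proteins, also called Olf/EBF or O/E factors, share a DNA-binding domain with a zinc-coordinating knuckle and a helix-loop-helix part through which they pair. The pair reads a palindrome in which CCC and GGG face each other. Ebf1 was found in olfactory neurons as Olf-1 and in the B-cell lineage, which requires it. Ebf2 is known from brown fat and neurons and Ebf3 from the developing nervous system, and all members are known in the olfactory epithelium, where sites for them lie at the promoters of olfactory signalling genes.

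The Ldb1 lists held 4290 and 542 peaks in Lhx2 KO neurons, 5095 and 21250 in Olfr1507+ cells, and 16067 to 28879 in control neurons. The CTCF lists held 27609 and 34210 peaks and the Rad21 lists 10487 and 28151. Read depth is unknown, since the lists hold a score per peak and no read numbers, and that score is the authors'. A region below is a set of overlapping peaks (at least 1 shared base) to which at least 2 libraries of the same group contribute. That gave 393 Lhx2 KO, 4989 Olfr1507 and 22789 control Ldb1 regions, 24877 CTCF regions and 9881 Rad21 regions. Peaks were ranked by score within their own list, rank 1 being the strongest and tied peaks sharing a mean rank. Control Ldb1 regions were ordered by their mean score percentile over the 3 lists, an absent peak counting as 0. Markers of mature olfactory neurons all held a control Ldb1 region within 10 kb (6 of 6), as did immature neuron markers (3 of 3). Of the other markers, 0 of 3 sustentacular, 1 of 3 basal and 1 of 3 glial, immune and vascular genes held one. The share over all protein-coding genes was 39.6%. These marker lists are short, and their part in the results was not tested.

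The 250 bases upstream of the annotated starts were examined first, because they are the only regulatory DNA of these genes in the RefSeq tables used here (GRCm38.p6, which is mm10). The table held 4 such sequences for 3 of the 4 genes, of which 3 are shown because their Ldb1 peaks differ. The Ebf3 and Ebf4 stretches lie inside the gene bodies given below, which reach farther upstream than the starts used here. Capitals mark a match to CCCNNGGG, the core of the palindrome, searched on both strands.
Ebf1 upstream, chr11:44617850-44618099, + strand: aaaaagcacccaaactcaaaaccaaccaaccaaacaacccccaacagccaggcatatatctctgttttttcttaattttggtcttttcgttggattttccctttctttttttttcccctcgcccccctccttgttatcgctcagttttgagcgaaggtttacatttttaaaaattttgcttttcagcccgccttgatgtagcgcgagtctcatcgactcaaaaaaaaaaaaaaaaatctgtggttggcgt
Ebf3 upstream, chr7:137314446-137314695, − strand: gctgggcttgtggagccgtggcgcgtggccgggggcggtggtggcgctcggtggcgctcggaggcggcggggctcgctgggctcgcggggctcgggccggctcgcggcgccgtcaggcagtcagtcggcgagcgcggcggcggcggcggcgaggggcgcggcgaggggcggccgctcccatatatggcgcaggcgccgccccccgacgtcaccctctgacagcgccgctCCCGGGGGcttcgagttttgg
Ebf4 upstream, chr2:130295689-130295938, + strand: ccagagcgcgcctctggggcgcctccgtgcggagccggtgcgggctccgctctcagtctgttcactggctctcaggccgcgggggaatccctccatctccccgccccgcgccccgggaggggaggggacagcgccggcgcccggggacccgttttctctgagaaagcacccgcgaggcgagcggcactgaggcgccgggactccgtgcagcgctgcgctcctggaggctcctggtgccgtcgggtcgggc
The Ebf1 stretch was the poorest in G and C (40.0%, against 80.0% for Ebf3 and 75.2% for Ebf4) and held no peak of any of the 11 libraries. Its nearest peaks lay close by, at 0.831 kb from the start in the first Lhx2 KO library, at 0.915 and 0.921 kb in the Olfr1507 libraries and at 0.899 to 0.913 kb in the 3 control libraries. The Ebf3 stretch held an Ldb1 peak in the second Olfr1507 library and the first control library alone. It also held the single CCCNNGGG match of the 4 sequences, 21 bases before the start; 11.8% of 32851 upstream sequences of the same length have at least 1. The Ebf4 stretch lay under a control Ldb1 region, chr2:130295547-130295948, with peaks in the second Olfr1507 library and in the second and the third control library, and with a peak of the second CTCF and the second Rad21 library. No Lhx2 KO peak overlapped any of the 4 sequences, and the first KO library had one 0.772 kb from the Ebf4 start used here. That peak covered the lower-numbered end of the Ebf4 body, with its centre 0.041 kb inside it. None of the 4 held the full TCCCNNGGGA palindrome (0.779% of all upstream sequences), or TAATTA (4.84%) or TAATNA (24.3%), letters that LIM-homeodomain and other homeodomain proteins read; TAATTA matches are also TAATNA matches.

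All 4 genes held control Ldb1 regions within 10 kb, as did 39.6% of all protein-coding genes, and 3 of them held many. Ebf1 (chr11:44618100-45008096) had 28, 33 and 23 peaks in the 3 control libraries, which met in 26 regions, 24 of them touching the gene body. Ebf2 (chr14:67233292-67430952) had 30, 29 and 27 peaks and 28 regions, all in the body. Ebf3 (chr7:137193671-137322805) had 17, 17 and 13 peaks and 15 regions, 14 of them in the body. Ebf4 (chr2:130295126-130370482) had 5, 6 and 6 peaks and 6 regions, 5 in the body. The 3 control libraries thus counted alike at each gene, and the order Ebf2, Ebf1, Ebf3, Ebf4 in regions was kept in 2 of the 3 libraries, the second listing more peaks at Ebf1 than at Ebf2. Exons and introns are not in the gene table used here, so regions are placed only by distance.

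The order by density was different. Per 100 kb of window, Ebf2 held 12.9 regions, Ebf3 10.1, Ebf1 6.34 and Ebf4 6.29, where the median protein-coding gene held 0. Only 14 of the 21775 genes held more regions than Ebf2, 16 more than Ebf1, 74 more than Ebf3 and 443 more than Ebf4. Among genes of 0.8 to 1.25 times the window length, 0 of 686 reached the count of Ebf2 (median 2, highest 19), 2 of 1201 reached that of Ebf3 (median 1), 3 of 305 that of Ebf1 (median 4) and 76 of 1992 that of Ebf4 (median 1). Widening the window to 100 kb added few regions, to 34 at Ebf2, 29 at Ebf1, 19 at Ebf3 and 7 at Ebf4, where 75.3% of all genes held at least 1. Most of the 89 regions in the wide windows (75) therefore lay within 10 kb of the genes.

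**Figure D1:**
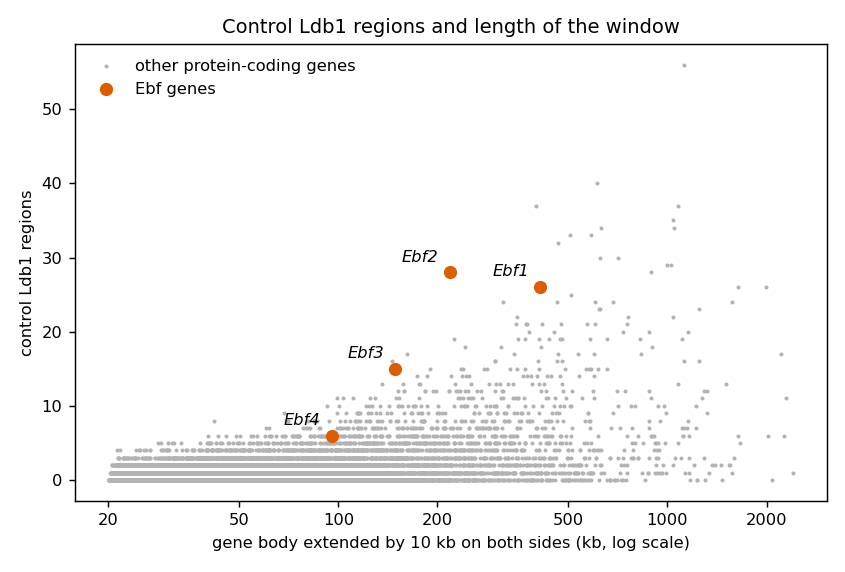
Control Ldb1 regions (vertical axis) within each protein-coding gene body extended by 10 kb, against the length of that window in kb on a log scale; grey points are the other genes and orange points the Ebf genes. Ebf2 (28 regions) and Ebf3 (15) lie at the upper edge of genes of their length, while Ebf4 (6) lies inside the cloud.

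Neighbouring control Ldb1 regions of the Ebf genes stood close together. The median gap between region centres within 10 kb of the gene was 8.08 kb at Ebf1, 6.92 kb at Ebf2, 8.99 kb at Ebf3 and 6.90 kb at Ebf4, against 33.4 kb over all control Ldb1 regions. Gaps of at most 12.5 kb made up 64.0% of those at Ebf1 (16 of 25), 88.9% at Ebf2 (24 of 27), 71.4% at Ebf3 (10 of 14) and 80.0% at Ebf4 (4 of 5), against 27.6% overall. Gaps at the Ebf genes were taken only inside the windows, which leaves out long ones. The overall values use every gap along the chromosomes. The contrast thus largely restates the density given above and is no separate evidence of close spacing. Ebf2 carried a run of 18 regions over 83.7 kb, from 1.29 to 85.0 kb above the lower-numbered end of the gene, in which no gap exceeded 12.5 kb. It was the longest of the 16509 runs in the genome at that limit, the next holding 11 regions. It stayed at 18 regions, with none longer, when only regions with peaks of all 3 control libraries were used or when any 1 control library was left out. The rank moved with the limit. It was the longest at 10 and 20 kb, and 1 run was longer at 15 kb. At 5 kb it broke into pieces of at most 3 regions, with 27 longer runs elsewhere. At 25 kb the Ebf2 count was cut at the 10 kb window (28 regions). The only longer run at that limit, of 31 regions, is the Ebf2 run itself, continued through control Ldb1 regions below the window.

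The other genes had shorter runs. Ebf1 held 8 regions over 48.7 kb, starting 0.910 kb below the gene's start, and Ebf3 8 regions over 44.6 kb, a size that 29 runs in the genome reached. The 4 regions of the Ebf4 run spanned 13.6 kb, and 517 runs were at least as large. Without the third control library the Ebf3 run held 5 regions and the Ebf4 run 2. The regions were spread unevenly, with more on the lower-numbered side of the window's midpoint at every gene (19 against 7 at Ebf1, 19 against 9 at Ebf2, 9 against 6 at Ebf3 and 4 against 2 at Ebf4). On the annotated strands that side is the 5′ side for Ebf1 and Ebf4 and the 3′ side for Ebf3; no strand for Ebf2 was in the tables used. Ebf1 had its widest gap of 73.5 kb just before the gene's end, and Ebf4 one of 54.0 kb within the body.

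**Figure D2:**
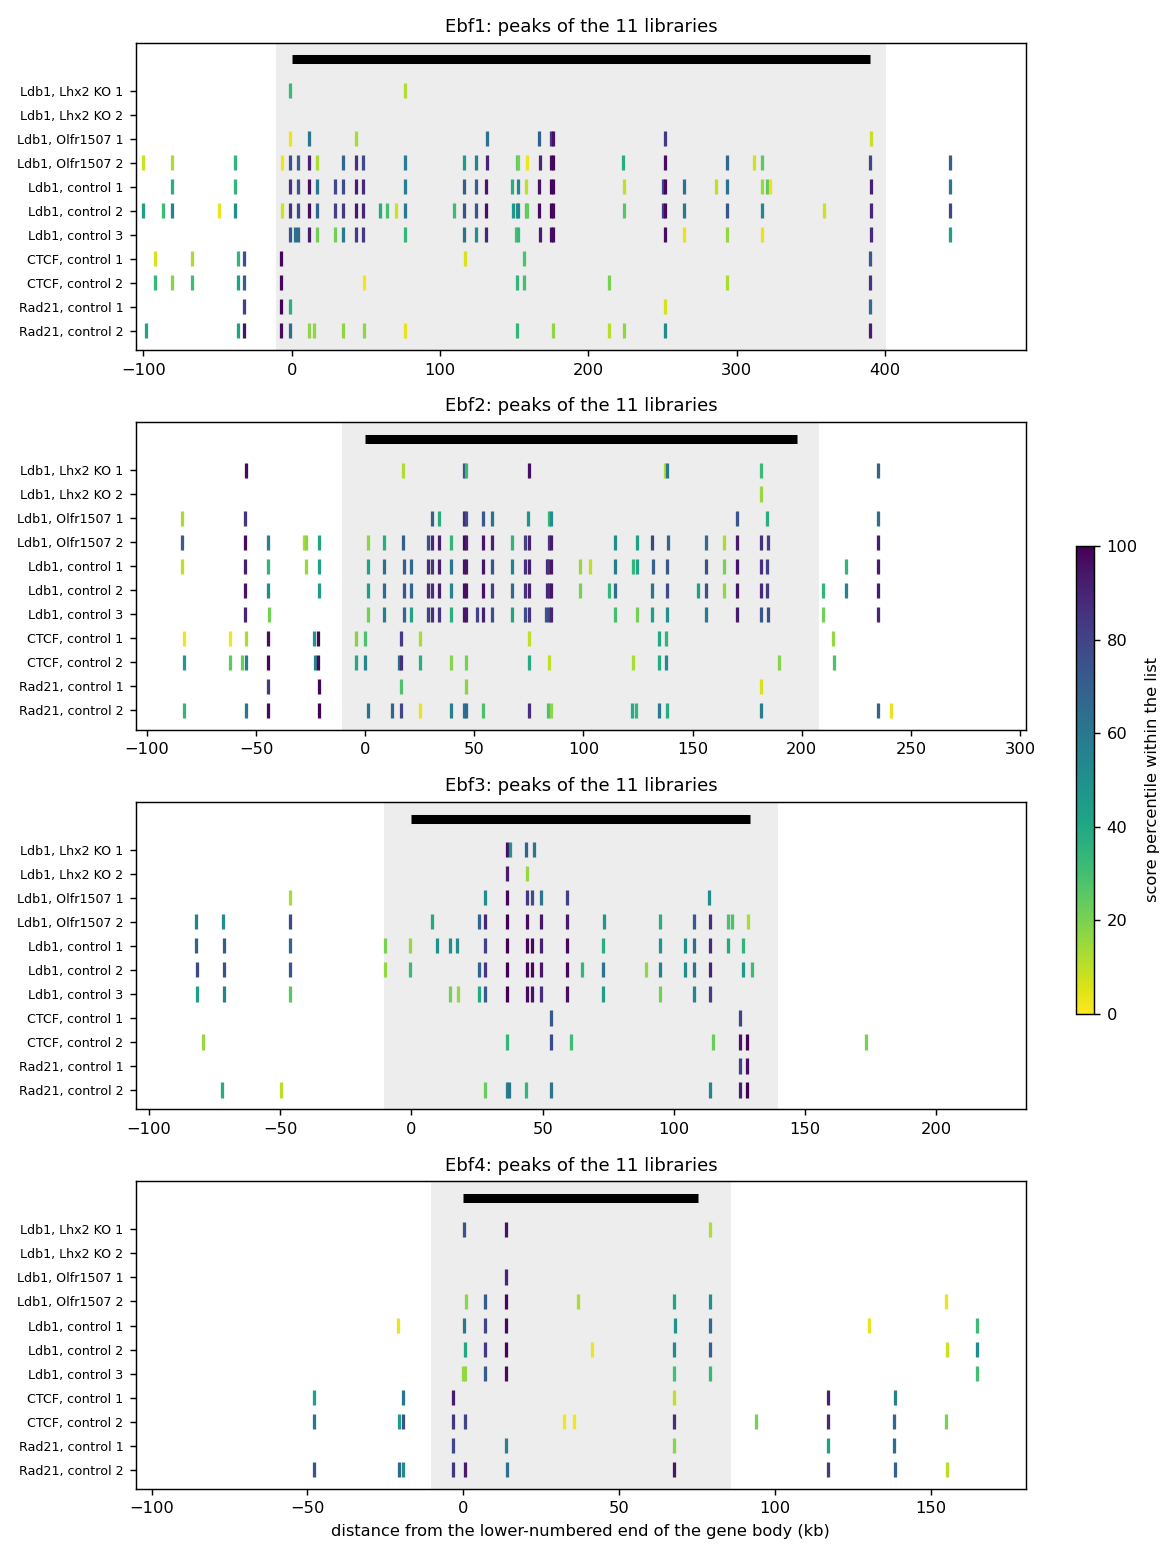
Peaks of the 11 libraries (rows) at each Ebf gene, by distance in kb from the lower-numbered end of the gene body (black bar), with the 10 kb window in grey; each tick is 1 peak, coloured by its score percentile within its own list. Ldb1 peaks crowd the body of Ebf2 and the lower-numbered part of Ebf1, and the first Lhx2 KO list has 2 to 7 ticks per grey window.

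**Figure D3:**
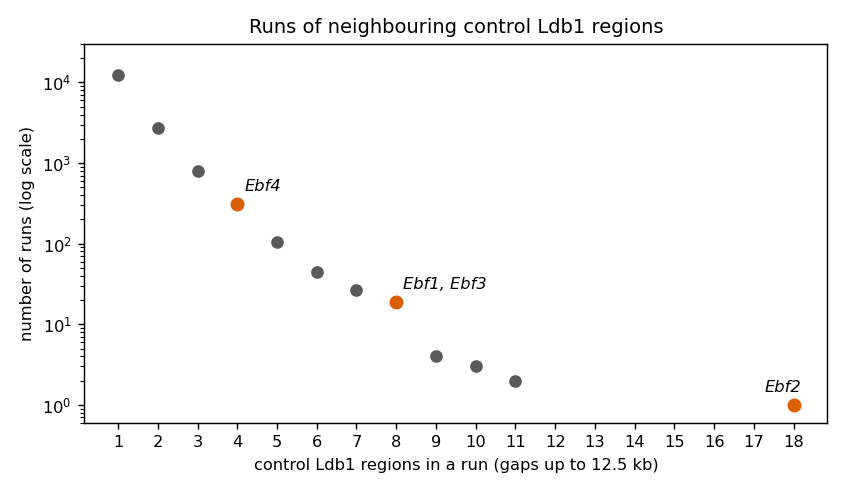
Number of runs in the genome (vertical axis, log scale) by the number of control Ldb1 regions in the run (horizontal axis), with gaps of up to 12.5 kb; orange points mark the sizes of the longest runs at the Ebf genes. The Ebf2 run of 18 stands alone beyond the next runs of 11 regions; without the third control library the Ebf3 run falls to 5 regions and the Ebf4 run to 2.

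The Ebf regions were strong as well as many. Within 10 kb, 60 of the 75 control Ldb1 regions were in all 3 control libraries (65.2% of all regions) and 19 were among the strongest 10% (10.0% of all regions by construction). By gene these 19 were 7 of 26 at Ebf1, 6 of 28 at Ebf2, 5 of 15 at Ebf3 and 1 of 6 at Ebf4. The median of the regions' mean percentiles was 66.5 at Ebf1, 78.6 at Ebf2, 59.8 at Ebf3 and 49.9 at Ebf4, against 45.3 over all control Ldb1 regions. Weak regions stood beside them, down to a percentile of 12.1 at Ebf1, 11.8 at Ebf2, 15.7 at Ebf3 and 18.9 at Ebf4.

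The strongest was in Ebf3, chr7:137229854-137230211, 84.4 kb downstream of the annotated start. It ranked 17, 20 and 14 in the control lists and 15th in order of all 22789 regions. In Ebf4, chr2:130308675-130309012, 12.9 kb downstream of the start, ranked 507.5, 367 and 400.5 in the control lists and 413th in order. Ebf1 had a close pair, chr11:44792856-44793193 and chr11:44794342-44794693, 1.49 kb apart and 173 kb downstream of the nearer annotated start, which were 422nd and 463rd in order. The strongest at Ebf2, chr14:67278393-67278759, was 948th, although this gene held the most regions.

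Whether Ldb1 peaks at these regions were also listed in Lhx2 KO neurons was compared next. The KO lists were far shorter than the control lists, and counts in lists of equal length follow further on. Of the control Ldb1 regions within 10 kb, a peak of either KO library lay at 2 of 26 in Ebf1, 6 of 28 in Ebf2, 2 of 15 in Ebf3 and 3 of 6 in Ebf4. Together that is 13 of 75 (17.3%), against 13.2% of all control Ldb1 regions, so the share over the 4 genes was near the background. All 13 had a peak of the first KO library (12.7% of all regions), and 3 of the 13 one of the second (2.17%), so without the first library the counts are 0, 1, 2 and 0. Regions shared by both KO libraries numbered 1 within 10 kb of Ebf2, 2 at Ebf3 and 0 at Ebf1 and Ebf4, where 1.53% of all protein-coding genes had one.

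The genes differed in which regions these were. At Ebf3 both regions with KO peaks were among the gene's strongest and had peaks in both KO libraries, as 1.68% of all control regions and 11.9% of the strongest 10% did. The leading region at chr7:137229854-137230211 ranked 176.5 and 43.5 in the KO lists, and chr7:137237414-137237755, 414th in control order, ranked 1364 and 460. At Ebf4 the strongest control region was also the strongest KO peak of that gene, at rank 209 of 4290 in one KO list and with no peak in the other. The other KO peaks there lay near the ends of the gene, at chr2:130294992-130295396 (rank 1093) and chr2:130373953-130374343 (rank 3782.5).

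At Ebf1 the overlap lay elsewhere. None of its 7 regions in the strongest 10% had a peak in either KO library, against 36.0% of such regions genome-wide with a peak in the first library and 14.7% in the second. Over the 4 genes, 5 of 19 such regions had a peak of either KO library (38.8% genome-wide). For the 7 regions the nearest peak of the first KO library was 12.1 to 314 kb away. Both Ebf1 KO peaks were weak: one at chr11:44617021-44617359, 0.910 kb upstream of the start, ranked 2906 of 4290, and one at chr11:44694514-44694877 ranked 3782.5 and had the lowest score in its list, 9. Such regions are few and share neighbours, so these counts are a description with no test.

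At Ebf2, 2 of the 6 regions in the strongest 10% had a peak of the first KO library, including the strongest (rank 1093 in that list). The highest KO ranks of Ebf2 lay at CTCF peaks instead. A KO peak ranked 147.5 lay in chr14:67307987-67308338, where both CTCF libraries had a peak, and one ranked 126.5 lay 54.4 kb below the gene at chr14:67178725-67178968, on the CTCF region chr14:67178721-67179064 and 167 bases outside a control Ldb1 region. Of all 4290 peaks of that KO library 5.34% had peaks of both CTCF libraries. A single Ebf2 region had peaks of both KO libraries, chr14:67414287-67414748, with ranks 2906 and 460. The KO peaks outside any control Ldb1 region were 1 of 7 within 10 kb of Ebf2 and 2 of 4 at Ebf3, and each lay 396 to 757 bases from one. Over the 4 genes these were 3 of 16 peaks of the first KO library, of which 32.6% lay outside such regions genome-wide.

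**Figure D4:**
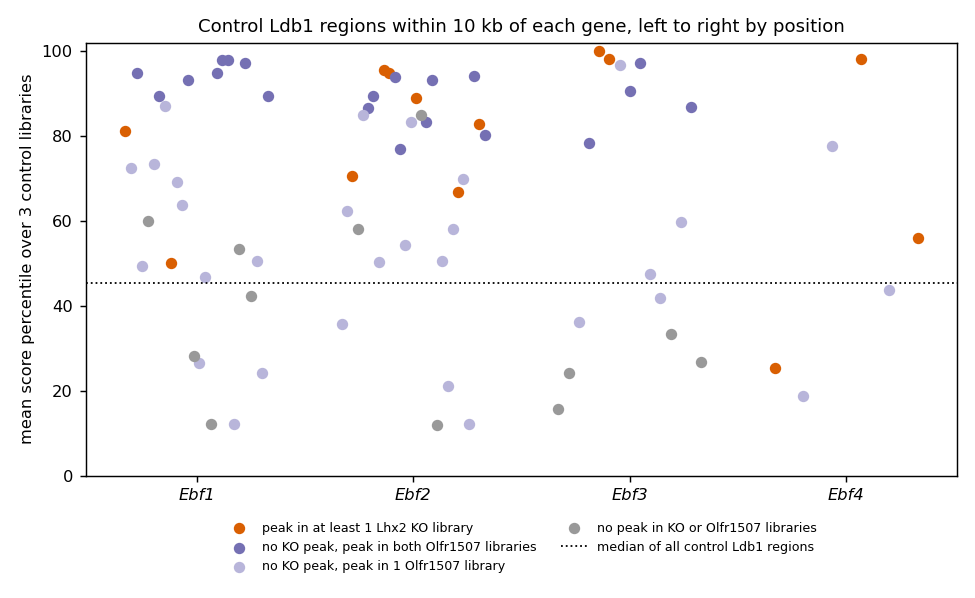
Each point is a control Ldb1 region within 10 kb of an Ebf gene, placed from left to right by position, with its mean score percentile over the 3 control libraries on the vertical axis; colours give its peaks in the Lhx2 KO and Olfr1507 libraries and the dotted line is the median of all control Ldb1 regions (45.3). The 2 regions of Ebf3 and 1 of Ebf4 with the highest percentiles had Lhx2 KO peaks (orange), whereas the 7 highest of Ebf1 had none.

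The share of each Ldb1 list spent on a gene allows lists of unequal length to be set side by side. Ebf1 took 4.66 and 0 of every 10000 peaks in the Lhx2 KO libraries, against 11.3, 11.4 and 14.3 in the control libraries, and the groups did not overlap. The difference was -10.0 per 10000, with an exact permutation p = 0.1 (two-sided, adjusted p = 0.4 by Benjamini-Hochberg over 8 differences), the smallest p that 2 against 3 libraries allow. The 0 is 0 of 542 peaks, which allows a share of up to 55.4 per 10000, so the second KO library alone cannot show a lower share. When each list was limited to its strongest 4290 peaks, Ebf1 held 2 peaks in that of the first KO library, 6 and 7 in those of the Olfr1507 libraries and 10 in each of the 3 control libraries. Ebf2 then held 7 peaks of the first KO library, against 11 and 13 in the Olfr1507 libraries and 13, 13 and 16 in the control libraries. Ebf3 held 4 peaks of the first KO library, against 7 and 6 in the Olfr1507 libraries and 6 in each control library. Ebf4 held 3 in the first KO library, against 1 in every Olfr1507 and control library. At this length the first KO library was below every control library at Ebf1, Ebf2 and Ebf3 and above them at Ebf4.

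Ebf3 took 9.32 and 36.9 per 10000 peaks in the Lhx2 KO libraries, against 6.83, 5.89 and 8.09 in the control libraries. Both KO values were above all 3 control values, by 16.2 per 10000 on average (exact permutation p = 0.1, two-sided, adjusted p = 0.4). The size rested on the second KO library, whose 36.9 stands for 2 peaks, and without it the difference was 2.39; with every list limited to 542 peaks it was -15.4 (exact permutation p = 0.6). Within those strongest 542, Ebf3 held 1 and 2 peaks in the KO libraries, 1 and 1 in the Olfr1507 libraries, and 3, 2 and 2 in the control libraries.

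Ebf2 took 16.3 and 18.5 per 10000 in the Lhx2 KO libraries, against 12.1, 10.0 and 16.8 in the control libraries, and the groups overlapped (difference 4.41, exact permutation p = 0.3, adjusted p = 0.8). The share of 18.5 in the second KO library stands for 1 peak of 542. In the stronger 50% of each list the difference at Ebf2 was -13.3 (exact permutation p = 0.1), and with lists limited to 542 peaks it was 18.5 (exact permutation p = 0.1). The latter stands for 1 peak in each KO list and 0 in each control list. Ebf4 took 6.99 and 0 in the KO libraries, against 2.01, 2.08 and 3.73 in the control libraries, with a difference of 0.889 (exact permutation p = 0.8, adjusted p = 0.8). The first KO value was above all 3 control values, and the second, again 0 of 542 peaks, cannot show a lower share. The difference was -2.61 without the first KO library and 4.39 without the second. No difference passed adjustment, which this number of libraries cannot reach.

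**Figure D5:**
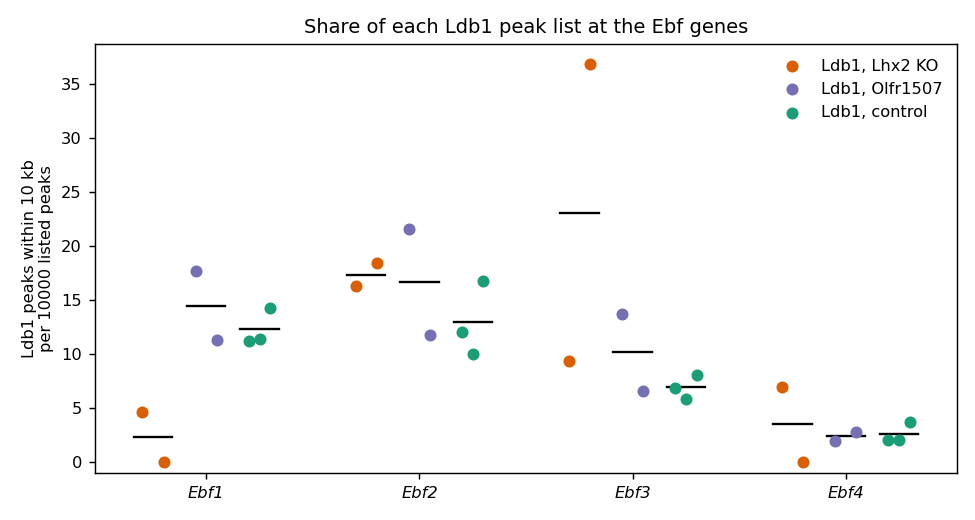
Ldb1 peaks within 10 kb of each Ebf gene per 10000 peaks of the list (vertical axis), 1 point per library, for Lhx2 KO, Olfr1507 and control neurons from left to right; black bars are group means. At Ebf1 both Lhx2 KO points (4.66 and 0) lie under the control points, at Ebf3 both (9.32 and 36.9) lie above them, and the other comparisons overlap.

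Most of the Ebf sites of control neurons were also listed in Olfr1507+ cells. A peak of either Olfr1507 library lay at 21 of 26 control Ldb1 regions in Ebf1, 25 of 28 in Ebf2, 11 of 15 in Ebf3 and 5 of 6 in Ebf4, together 62 of 75 (82.7%, against 73.7% of all control Ldb1 regions). The first, shorter list covered 9, 11, 7 and 1 of them (21.8% of all regions), and these are the counts without the second library, which covered 21, 25, 10 and 5 (73.5%). Both libraries had a peak at 27 of the 75 (36.0%, against 21.6% of all regions). Presence in these lists followed strength. Of all control Ldb1 regions, the first library covered 96.4% of the strongest 10% and 0.264% of the weakest 10%. The second covered 99.3% and 31.8%. With 19 of the 75 Ebf regions in the strongest 10%, the shares above are not matched for strength. They therefore cannot show that Ebf regions were listed in Olfr1507+ cells more often than other regions of like strength. Regions shared by both Olfr1507 libraries numbered 9 at Ebf1, 11 at Ebf2, 6 at Ebf3 and 1 at Ebf4, where 11.6% of all protein-coding genes had at least 1. All 19 of the Ebf regions in the strongest 10% had a peak in the first library (96.4% genome-wide) and 18 in the second (99.3%; 95.9% had both). The exception was in Ebf3, chr7:137239488-137239853, 693rd in control order, with rank 1161 in the first Olfr1507 list and no peak of the second within 1.74 kb. Only 17 of 2278 regions in the strongest 10% lacked a peak of the second library, and 12 of the 17 had one of the first.

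The leading Ebf3 region ranked 73.5 and 84.5 in the Olfr1507 lists. At Ebf1 the second of the close pair, chr11:44794342-44794693, ranked 231 and 255.5 there and the first 808 and 670, the reverse of their order by mean percentile in control neurons. The third control library had the Olfr1507 order too, with rank 453 for the second and 590 for the first. By share of the lists, Ebf1 took 17.7 and 11.3 per 10000 in the Olfr1507 libraries, against 11.3, 11.4 and 14.3 in the control libraries, and Ebf2 took 21.6 and 11.8, against 12.1, 10.0 and 16.8. Ebf3 took 13.7 and 6.59, against 6.83, 5.89 and 8.09, and Ebf4 1.96 and 2.82, against 2.01, 2.08 and 3.73. Both groups overlapped at all 4 genes. The differences were 2.15, 3.71, 3.23 and -0.214 per 10000 for Ebf1 to Ebf4, with exact permutation p-values of 0.4 to 0.8 (two-sided, all adjusted to 0.8). The sign rested on the first Olfr1507 library, without which they were -1.04, -1.20, -0.349 and 0.216, and for Ebf4 also on the third control library (0.349 without it). The Lhx2 KO and Olfr1507 comparisons share their 3 control libraries.

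Most control Ldb1 regions at the Ebf genes lay apart from CTCF and Rad21 regions, as did most control Ldb1 regions of the genome (89.3% and 93.8%). Rad21 regions at the Ebf genes often lay on an Ldb1 region. All 4 genes held CTCF regions within 10 kb (56.5% of all genes) and Rad21 regions (31.6%). CTCF regions numbered 3 at Ebf1, 7 at Ebf2, 2 at Ebf3 and 2 at Ebf4, and the median for genes of like length was 3, 2, 2 and 1. Rad21 regions numbered 4, 3, 2 and 3. The paired libraries differed, with 4 and 7 CTCF peaks at Ebf1, 7 and 13 at Ebf2, 2 and 6 at Ebf3, and 2 and 5 at Ebf4. For Rad21 there were 4 and 13, 3 and 16, 2 and 8, and 3 and 4, so the second library alone gives far higher counts. Of the 75 control Ldb1 regions, 67 lay apart from CTCF and Rad21 regions alike (89.3%, against 93.8% of all regions), 3 overlapped CTCF (4.52%) and 7 Rad21 (3.82%). By gene, 23 of 26, 25 of 28, 15 of 15 and 4 of 6 lay apart from both. Read the other way, 7 of the 12 Rad21 regions lay on a control Ldb1 region (8.81% of all Rad21 regions), 3 of 4 at Ebf1, 2 of 3 at Ebf2, 0 of 2 at Ebf3 and 2 of 3 at Ebf4. That count rests in part on weak peaks, since the stronger 50% of each list kept 2 Rad21 regions at Ebf1 and 0 at Ebf2. Peaks of the second Rad21 library lay at 25 of the 75 (23.3% of all regions, and 50.3% of the strongest 10%).

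Several strong CTCF and Rad21 sites lay near or beyond the ends of the genes. At Ebf1 a CTCF region at chr11:44610873-44611216, 7.06 kb upstream of the start, was 298th of 24877 in order and its Rad21 region 152nd of 9881, with no control Ldb1 region. Past the gene's end, chr11:45008110-45008458 held CTCF, Rad21 and Ldb1 together, with CTCF order 5715. At Ebf2 the strongest sites lay outside the 10 kb window on the lower-numbered side, chr14:67211721-67212064 at 21.4 kb (CTCF order 207, Rad21 order 33) and chr14:67188719-67189062 at 44.4 kb (CTCF order 397), both with a control Ldb1 region. At Ebf3 the Rad21 region chr7:137321491-137321808, 7.20 kb upstream of the annotated start, was 224th in order and had a peak in the second CTCF library but not in the first. A second site, chr7:137318866-137319211, 4.59 kb upstream, held both proteins (CTCF order 2956, Rad21 order 1885). Both Ebf3 sites lie inside the gene body, which reaches beyond the start used here. At Ebf4 the strongest CTCF region within 10 kb, chr2:130291511-130291854, lay 4.26 kb upstream of the start (CTCF order 2600, Rad21 order 2531), and chr2:130362616-130362959 in the body held all 3 proteins. Rad21 without a CTCF region, seen in 7.47% of Rad21 regions genome-wide, occurred at Ebf1 (2 of 4 within 10 kb), Ebf2 (2 of 3), Ebf3 (1 of 2) and Ebf4 (1 of 3). At these genes 6 of 12 Rad21 regions lay on a CTCF region (92.5% genome-wide), and 6 of 14 CTCF regions on a Rad21 region (36.8%). Of the 6 without CTCF, all but the Ebf3 one lay on a control Ldb1 region, among them the strongest Ebf4 region and the Ebf1 region 0.910 kb upstream of the start. The Ebf3 one had a peak of the second CTCF library alone. So did the Ebf2 one 46.3 kb above the lower-numbered end of the gene.

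The partners of Ebf proteins and other transcription factors of olfactory neurons looked up numbered 16. Of these, 11 held a control Ldb1 region within 10 kb (39.6% of all genes), with a median of 2 regions. A peak of the first Lhx2 KO library lay at 6 and one of the second at 2 (15.2% and 2.12%). Peaks of both Olfr1507 libraries, not necessarily at the same place, lay at 8, and the share of all genes for that count is not given here. By a stricter count, 11.6% of all genes held a region shared by both Olfr1507 libraries, so this share is no background for the 8. The highest counts of control Ldb1 regions were 8 each at Nfia and Nfib, which encode nuclear factor I proteins, and at Zfp423, a zinc-finger protein that binds Ebf1 and holds it inactive. These are long genes, with 1.43, 3.38 and 2.50 regions per 100 kb of window. The densest of the 16 were Emx2 (11.2 per 100 kb, 3 regions), Ldb1 (8.19, 3 regions) and Lhx2 (7.93, 4 regions). Zfp423 had 7 peaks of the first Lhx2 KO library, as many as Ebf2. All 4 genes long known for Olf-1 sites at their promoters held control Ldb1 regions: Gnal, the olfactory G protein, with 12, Adcy3, the olfactory cyclase, with 10, Omp, the olfactory marker protein, with 2, and Cnga2, a subunit of the transduction channel, with 2.

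Over the 11 libraries, the Ebf genes resembled each other less than some other genes did. Likeness was measured as the Euclidean distance between log2(peaks within 10 kb + 1) values, which follows gene length and list length. Ebf1 and Ebf2 were 2.11 apart, Ebf1 and Ebf3 2.67, Ebf2 and Ebf3 2.82, and Ebf4 3.76 to 5.74 from the rest. Among the closest genes were Pde7b (1.05), Clstn2 (1.15) and Pard3b (1.19) to Ebf1, Msi2 (1.38) and Spock1 (1.44) to Ebf2, Efna5 (1.13), Dtna (1.20) and Slc22a23 (1.54) to Ebf3, and Olfm1 (0.714), Btbd8 (0.782) and Dclk3 (0.984) to Ebf4. The surroundings differed too: no other protein-coding gene overlapped the 100 kb window of Ebf2, only Rnf145 did at Ebf1, Mgmt and 9430038I01Rik did at Ebf3, and at Ebf4 Tmc2, Nop56, Idh3b, Cpxm1, 1700020A23Rik, Tmem239, Pced1a, Vps16 and Ptpra.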

How the data were processed

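Formaldehyde-fixed cells were sorted, chromatin was sonicated and immunoprecipitated, and libraries were made with a low-input kit, per the labels' protocols. The submitters' processing notes name HOMER 4.7, Bowtie2 2.3.2, cutadapt 1.9.1, Picard, SAMtools 1.3.1 and STAR 2.5.3a, and build mm10, without their roles. The authors deposited 1 peak list per library, with a score per peak whose scaling is not given in the sources used here; it served only to rank peaks within a list. Inputs and RNA samples were not analysed here. Peaks on assembled chromosomes were used with genes of the RefSeq table (GRCm38.p6; 340 scaffold entries left out) in Python 3.11.15, pandas 2.3.3 and SciPy 1.17.1. Members and gene lists were chosen with earlier results of these data known. The named genes are the members, the listed partners and the 3 genes nearest to each member, of which 1 is not reported here; for each member the strongest regions and those with KO peaks are named, and other regions were picked after their values were seen. Group differences were tested by exact permutation over libraries. Counting was checked on simulated data. Settings tried were the overlap rule (1 base, 50% reciprocal, or centres within 200 bases), the stronger 50% of each list, equal list lengths, the window, the run limit and leaving out libraries. A count of 0 allows up to 3 peaks, a limit that covers counting error only.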

Additional observations from a re-analysis of the deposited data

How the results depend on the processing

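Limits. Scores cannot be compared between lists, read depth is unknown, and 2 against 3 libraries cannot give p under 0.1. Leaving out 1 CTCF or Rad21 library leaves the peaks of the other. The cause of each change was not tested.

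With the stronger 50% of each list, control Ldb1 regions within 10 kb numbered 8 at Ebf3 and 3 at Ebf4, CTCF regions 1 at Ebf2 and 1 at Ebf4, and Rad21 regions 2 at Ebf1 and 0 at Ebf2. Control Ldb1 regions with a peak in either Lhx2 KO library then numbered 0 at Ebf1, 3 at Ebf2 and 1 at Ebf4, and those with a peak in either Olfr1507 library 3 at Ebf4. Reciprocal overlap of 50% gave 2 Rad21 regions at Ebf1. Of the differences per 10000 peaks, the stronger 50% turned Lhx2 KO minus control at Ebf2 to -13.3 and Olfr1507 minus control at Ebf4 to 0.549. Lists limited to the length of the shortest turned Lhx2 KO minus control to -15.4 at Ebf3 and -9.23 at Ebf4, and Olfr1507 minus control to -2.62 at Ebf1, -4.25 at Ebf2 and -0.981 at Ebf3.

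Leaving out 1 library at a time gave 21 to 25, 25 to 27, 11 to 12 and 4 to 5 control Ldb1 regions at Ebf1, Ebf2, Ebf3 and Ebf4. CTCF regions ranged over 4 to 7, 7 to 13, 2 to 6 and 2 to 5, and Rad21 regions over 4 to 13, 3 to 16, 2 to 8 and 3 to 4. Regions with a Lhx2 KO peak ranged over 0 to 2, 1 to 6, 2 to 2 and 0 to 3, and with an Olfr1507 peak over 9 to 21, 11 to 25, 7 to 11 and 1 to 5. Lhx2 KO minus control ranged over -12.3 to -7.67, 2.95 to 6.33, 2.39 to 30.0 and -2.61 to 4.39, and Olfr1507 minus control over -1.04 to 5.33, -1.20 to 8.62, -0.349 to 6.80 and -0.645 to 0.349.

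Run limits and all-library regions were chosen after seeing the data. Beside the values above, the longest Ebf2 run within 10 kb of the gene held 28 regions at 20 and 25 kb. The Ebf3 run, counted in the same way, held 15 at 25 kb. Whether replicate numbers pair the libraries could not be decided. Deviations from the mean of the first 2 libraries of each group were compared between libraries of the same number. They correlated at 0.00761 for Lhx2 KO and 0.0256 for Olfr1507 over 21775 genes. With 2 libraries per group the deviations mirror each other, so both pairs give the same value. The replicate block turned Olfr1507 minus control at Ebf4 to 0.349 and kept the other signs (Lhx2 KO minus control -9.01, 6.33, 16.8 and 1.45).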
